A study of Mus musculus with 6 samples.

Results

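Transcripts that mark neutrophils, T cells, NK cells, B cells, dendritic cells, microglia, and cells of neural tissue were examined in RNA-seq of monocytes sorted from the inflamed CNS. The 42 genes were chosen by name, as textbook markers of lineages other than the monocyte, out of 54232 genes in the series. They comprised 8 neutrophil, 9 T cell, 7 NK cell, 3 B cell, 5 dendritic cell, 7 microglia, and 3 neural markers. All 42 had at least 1 count in some library, 27 passed the low-count filter, and 15 were too sparse to be tested.

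Sorting by surface antigen enriches a population and seldom yields a pure one. Lineage markers are seldom exclusive, since some are transcribed at low levels in related cells. Bone marrow (BM) monocytes and neutrophils descend from a shared myeloid progenitor, and neutrophil granule proteins are made mainly while the cell matures in the BM. Resident microglia survive irradiation of the recipient better than blood-derived cells do, whereas T cells, NK cells, and dendritic cells of a BM chimera come largely from the donor marrow.

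The cells came from mixed BM chimeras. Their marrow had been rebuilt after irradiation from equal parts of CD45.1 WT cells and CD45.2 *Ifnar1*-/- cells, the hosts were GFP+, and *Ifnar1* encodes a chain of the type I IFN receptor. EAE, a mouse model of multiple sclerosis, was induced 6 to 7 weeks later, and every recipient received 30000 IU of rIFN-β daily, so no library comes from an untreated mouse. At disease peak, donor-derived GFP-CD45+CD11b+Ly6ChiLy6G- cells of each genotype were isolated from the CNS by FACS, giving 3 WT and 3 *Ifnar1*-/- libraries. The gate retains Ly6Chi cells and removes Ly6G+ neutrophils and GFP+ cells of the host, microglia included. The allele of CD45 differs between the donors together with *Ifnar1*, so an effect of either, or of the origin of the marrow, cannot be told apart. Ages were not given in the sources used here. The paper lists 3 recipients, each given both marrows, and 3 samples per genotype, so the genotypes would share mice. The sources do not tie single libraries to recipients, so the comparison was not paired. Its p-values treat the libraries as separate and measure the spread between these libraries only.

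Libraries held 4531782 to 7321380 expected counts, and 3 counts, taken as the floor, equal 0.41 to 0.662 CPM. Genes of mitochondrial ribosomal RNA took 12.3 to 22.7% of counts. Levels are compared between libraries as normalized CPM, CPM after TMM scaling of the library sizes, and between genes as TPM, which is corrected for transcript length. TPM was not used between libraries for single genes because 7SL RNA took 33% of TPM in WT library 1, against 11.5 to 15.3% in the others. *Ptprc* and *Itgam*, which encode CD45 and CD11b, were not called different between genotypes (adjusted p = 0.95 and 0.981, edgeR). *Ly6c2*, which encodes the Ly6C antigen of the gate, was present at 726, 788, and 640 normalized CPM in WT and 177, 300, and 337 in *Ifnar1*-/- libraries and was called higher in WT (log2 fold change 1.40, SE 0.23, adjusted p = 0.00957, edgeR). *Ly6g*, the neutrophil antigen that the gate excludes, had 0 to 4 counts per library. *Ifnar1* itself was at 111 to 153 normalized CPM in WT and 102 to 110 in *Ifnar1*-/- libraries (adjusted p = 0.36), so its gene-level count does not check the genotype labels, and the deleted part was not looked at separately.

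Neutrophil transcripts were by far the most abundant non-monocyte markers, and every other marker averaged 13 TPM or less. The 8 neutrophil markers averaged 18.7 to 904 TPM over the 6 libraries and made up 96.3% of the summed TPM of the 42 genes. For comparison, 16 genes typical of monocytes, among them *Lyz2*, *Csf1r*, and *Ccr2*, averaged 43.4 to 3510 TPM. T cell markers averaged 0.38 to 4.94 TPM, NK cell markers 0.0567 to 13, dendritic cell markers 0.05 to 3.81, microglia markers 0.0817 to 11.9, neural markers 0.0333 to 11.1, and B cell markers 0.015 to 0.893. *Ncr1*, *Cd79a*, *Ms4a1*, and *Snap25* did not exceed 3 counts in any library.

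**Figure D1:**
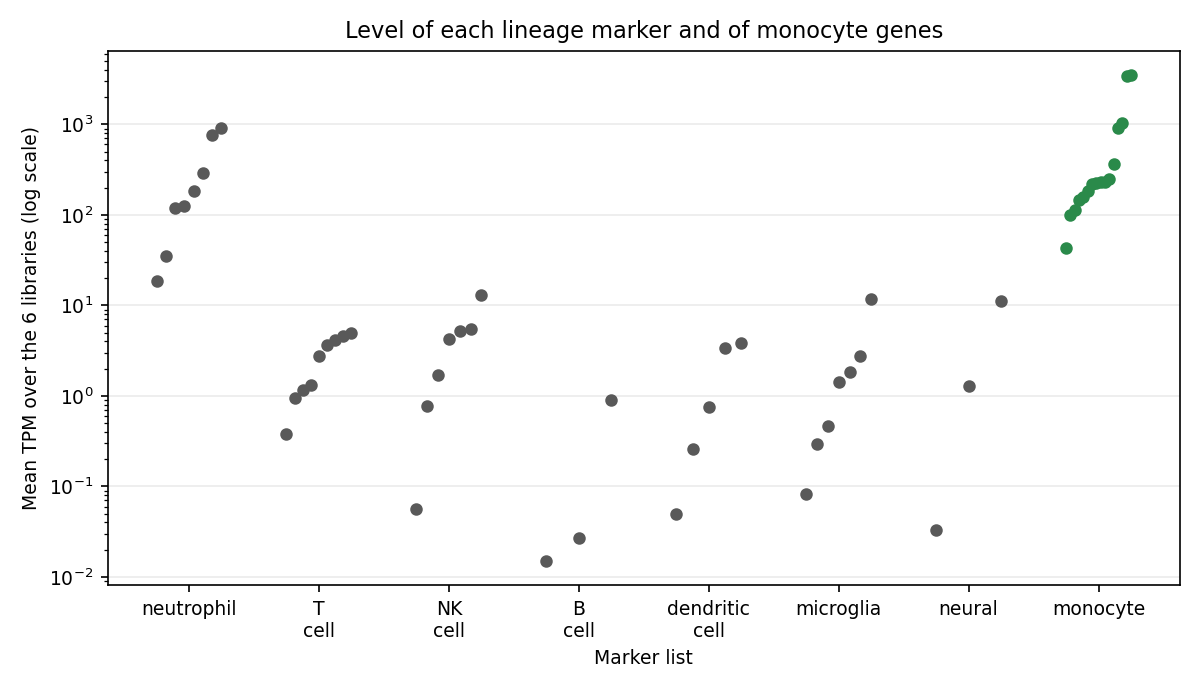
Mean TPM over the 6 libraries (log scale) for each of the 42 markers, grouped by list, with 16 monocyte genes in green; each point is a gene. The neutrophil markers, at 18.7 to 904 TPM, overlap the range of the monocyte genes, 43.4 to 3510 TPM, while every other marker averages 13 TPM or less.

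Only *Klrk1* among the 42 genes was called between WT and *Ifnar1*-/- monocytes (edgeR, adjusted p no larger than 0.05, fold change 1.5 or more), and it was higher in WT. None was lower. That is 1 of 27 tested markers, against 1.67% of all 11254 tested genes called higher in WT and 0.462% called lower. DESeq2 called 2 markers higher, *Klrk1* and *Gzmb*, and 0 lower, against 2.78% and 0.915% of the genes it tested. Without the low-count filter edgeR called 9 markers higher and 3 lower, against 2.87% and 1.23% of 21265 genes. Before adjustment, 9 markers had p under 0.05 with higher levels in WT and 0 with lower levels, against 9.69% and 8.14% of all tested genes. The 9 comprised the 7 tested T cell markers, *Klrk1*, and *Gzmb*. *Cd3d* passed the low-count filter through its WT libraries alone. The median log2 fold change was 0.40 over the tested markers and -0.01 over all tested genes. In bulk samples of this kind, fewer cells of a lineage and less RNA of that lineage per cell cannot be told apart.

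**Figure D2:**
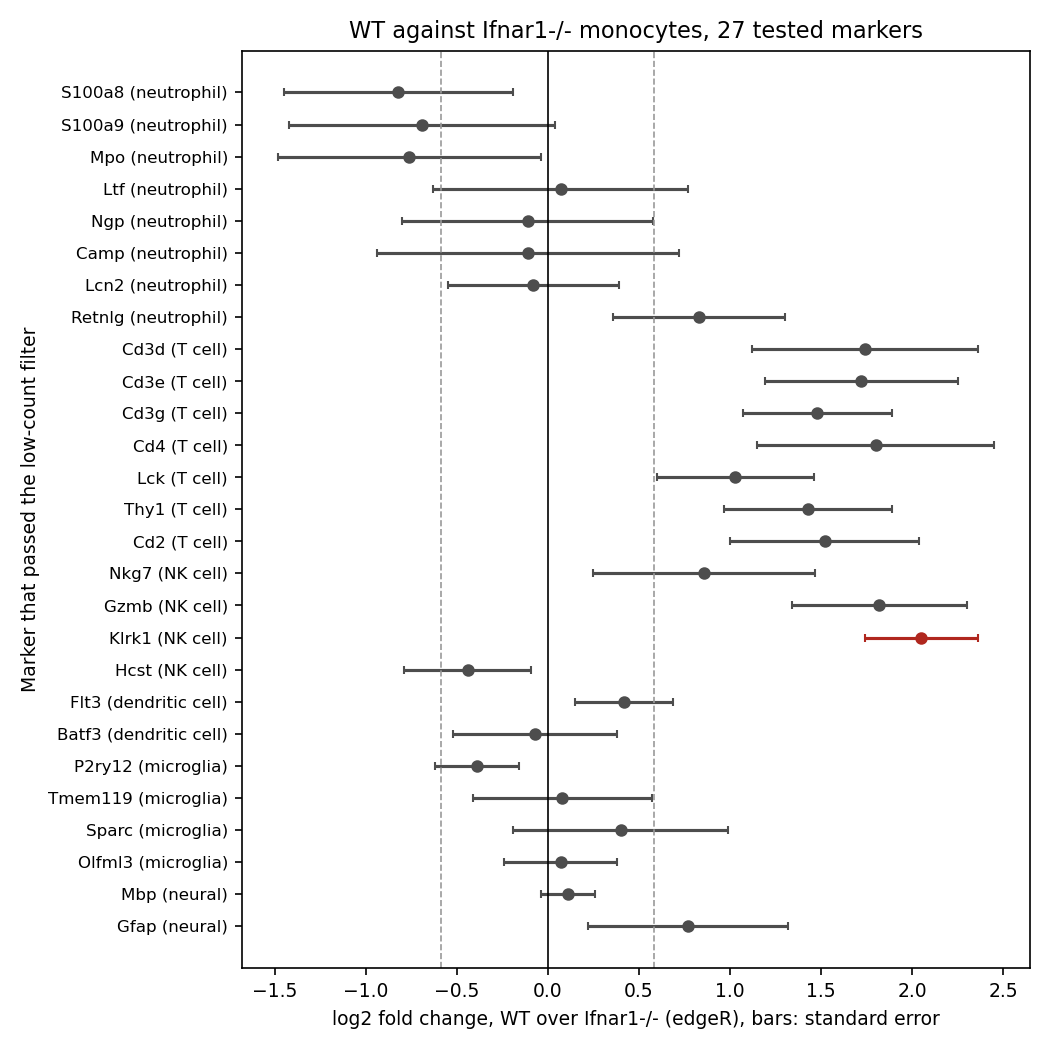
Log2 fold change of WT over *Ifnar1*-/- monocytes from edgeR for the 27 tested markers, with bars of 1 SE and dashed lines at the 1.5-fold threshold; *Klrk1*, the marker that was called, is in red. Estimates for the T cell markers lie between 1.03 and 1.80, while the neutrophil markers spread from -0.82 to 0.83 with wide error bars.

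Neutrophil markers varied more between libraries of one genotype than between genotypes. Summed over the 8 genes, they reached 272, 742, and 2408 normalized CPM in WT and 980, 802, and 2701 in *Ifnar1*-/- monocytes, given here and throughout in the order of the library numbers. WT library 1 was the lowest of the 6, *Ifnar1*-/- library 3 was the highest, and the groups overlapped. Within each library number the sum was lower in WT, but no source ties the numbers to mice. The ratio of group means was 0.763. Its log2 value was -0.39. As summed TPM, a scale that is lowest for WT library 1, the log2 ratio was -0.27. The TPM ratio ranged from -1.47 to 0.39 when single libraries were left out.

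*S100a8* and *S100a9* encode the calprotectin subunits, calcium-binding alarmins that neutrophils carry in bulk and that monocytes also make. *S100a8* (ENSMUSG00000056054.9, chr3:90668978-90670035, GRCm38) was at 34.6, 155, and 338 normalized CPM in WT and at 227, 178, and 523 in *Ifnar1*-/- libraries. The groups overlapped and the gene was not called (log2 fold change -0.82, SE 0.63, adjusted p = 0.541, edgeR). *S100a9*, 22.6 kb away on the same chromosome, was at 42.7, 170, and 509 in WT and 267, 166, and 734 in *Ifnar1*-/- libraries (log2 fold change -0.69, SE 0.73, adjusted p = 0.665, edgeR). Its order of libraries resembled that of *S100a8*, with WT library 1 far below the rest.

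*Ngp* encodes neutrophilic granule protein, a cathelin-like protein of the maturing granulocyte. It was at 74.6, 165, and 677 normalized CPM in WT and 203, 180, and 603 in *Ifnar1*-/- libraries (log2 fold change -0.11, SE 0.69, adjusted p = 0.959, edgeR), with overlapping groups. The other granule genes moved in a similar range. *Mpo*, the myeloperoxidase of primary granules, spanned 16.9 to 142 normalized CPM in WT and 44.2 to 231 in *Ifnar1*-/- libraries. *Ltf* (lactoferrin), *Camp* (cathelicidin), and *Lcn2* (the siderophore-binding lipocalin), which belong to later granules, spanned 38.3 to 303, 9.96 to 176, and 49.2 to 245 in WT. In *Ifnar1*-/- libraries the same 3 genes spanned 71.3 to 229, 33.9 to 155, and 95.9 to 217. *Retnlg*, a resistin-like gene of mature neutrophils, was the lowest of the list, at 6.12, 6.16, and 18.2 in WT and 3.51, 4.74, and 8.83 in *Ifnar1*-/- libraries. Over the list, 0 of 8 markers were called, 0 had an unadjusted p under 0.05 with edgeR, 0 were called with DESeq2, and the median log2 fold change was -0.11. The 3 markers called lower in WT by edgeR without the low-count filter were all of this list, namely *S100a8*, *S100a9*, and *Mpo* (adjusted p = 0.00035, 0.00525, and 0.000706). For *S100a8* and *S100a9* the log2 fold changes hardly moved in that fit (-0.82 and -0.70). Their SE fell from 0.63 and 0.73 to 0.18 for each, although their groups overlapped, and why it fell was not tested.

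**Figure D3:**
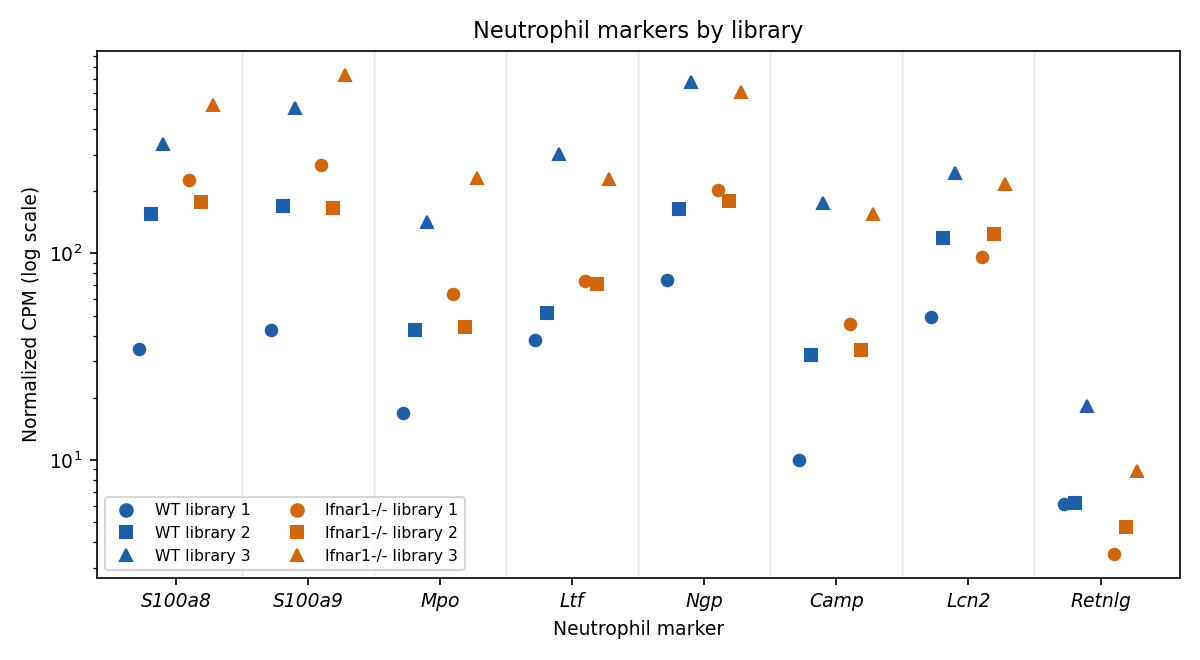
Normalized CPM (log scale) of the 8 neutrophil markers in each library, WT and *Ifnar1*-/- side by side, with a symbol for each library number. WT library 1 lies lowest for the S100 and granule genes, and the groups overlap for all 8 genes.

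The spread was unusual for genes at these levels. The highest WT library exceeded the lowest 9.77-fold for *S100a8*, 11.9-fold for *S100a9*, 9.08-fold for *Ngp*, and 17.6-fold for *Camp*. In the *Ifnar1*-/- group the corresponding ratios were 2.94, 4.42, 3.35, and 4.58. Among 7632 tested genes that averaged at least 10 normalized CPM, the median ratio was 1.31 in WT and 1.27 in *Ifnar1*-/- libraries. *Mbp*, a neural marker of comparable count, had ratios of 1.28 and 1.2. The monocyte gene list, in contrast to the neutrophil list, summed to 15943 to 16300 normalized CPM in WT and 17282 to 18099 in *Ifnar1*-/- libraries.

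The neutrophil genes did not vary in strict proportion. *S100a8* and *S100a9* together were at 77.3, 325, and 847 normalized CPM in WT and 494, 344, and 1257 in *Ifnar1*-/- libraries. The later-granule genes *Ltf*, *Ngp*, *Camp*, and *Lcn2* together were at 172, 368, and 1401 in WT and 419, 409, and 1204 in *Ifnar1*-/- libraries. The ratio of the second group to the first was 2.23, 1.13, and 1.65 in WT and 0.847, 1.19, and 0.958 in *Ifnar1*-/- libraries. WT library 1 therefore held more later-granule RNA per S100 RNA than any other library, and the genotypes overlapped. *Mpo* with 3 primary-granule protease genes outside the 42, *Elane*, *Prtn3*, and *Ctsg*, summed to 38.7, 114, and 257 in WT and 140, 91.2, and 437 in *Ifnar1*-/- libraries. These subgroups were formed after the values were seen. A separate list of 16 neutrophil genes, which includes *Elane*, *Prtn3*, and *Ctsg*, summed to 472 to 728 normalized CPM in WT and 462 to 784 in *Ifnar1*-/- libraries, and 0 of the 12 tested were called. Abundant and more even members, such as *Mmp8* at 126 to 173 and *Csf3r* at 82.5 to 129 in WT, made up much of that sum, whereas *Elane* spanned 5.41 to 48.8 and *Mmp9* 2.7 to 20.7 in WT.

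*Ngp*, *Ltf*, and *Camp* lie on chromosome 9 with 570 kb between *Ngp* and *Camp* and 596 kb between *Ltf* and *Ngp*. C/EBP factors, and C/EBPε in particular, are known to drive later-granule genes, so the bases upstream of these 3 genes and of *S100a8* were searched for the C/EBP core TTNNGNAA on both strands. The sequences are shown as examples of genes that varied widely between libraries, and *S100a9* and *Mpo*, which also did, are not shown. They are from RefSeq for GRCm38.p6, read 5′ to 3′ on the strand of the gene and ending at its start, with matches in capitals: chr9:111019042-111019270 (plus strand) for *Ltf*, chr9:110419558-110419746 (plus strand) for *Ngp*, chr9:109849618-109849706 (minus strand) for *Camp*, and chr3:90668821-90668977 (plus strand) for *S100a8*.
Ltf: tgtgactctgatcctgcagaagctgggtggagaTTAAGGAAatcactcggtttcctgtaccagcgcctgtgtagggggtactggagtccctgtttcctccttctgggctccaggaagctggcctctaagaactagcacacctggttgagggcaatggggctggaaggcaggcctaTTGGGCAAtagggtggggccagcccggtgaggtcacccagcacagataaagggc
Ngp: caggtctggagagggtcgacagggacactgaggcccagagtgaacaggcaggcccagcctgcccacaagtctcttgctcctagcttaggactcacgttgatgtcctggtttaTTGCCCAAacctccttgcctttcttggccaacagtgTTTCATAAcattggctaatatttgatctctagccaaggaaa
Camp: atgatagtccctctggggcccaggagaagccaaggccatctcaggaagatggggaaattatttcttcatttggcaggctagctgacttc
S100a8: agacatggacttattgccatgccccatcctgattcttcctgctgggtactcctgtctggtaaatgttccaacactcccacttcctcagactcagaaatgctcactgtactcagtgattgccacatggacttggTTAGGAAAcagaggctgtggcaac
*Ltf* and *Ngp* showed 2 matches each, *S100a8* showed 1, and *Camp* showed none. In the full window of 250 bases before and 50 after the start, 6 of 8 neutrophil markers held a match (*S100a8*, *S100a9*, *Ltf*, *Ngp*, *Lcn2*, and *Retnlg*), as did 16 of the 32 markers with a promoter entry and 40.7% of 32851 promoters. A match of these letters describes the sequence and shows no binding.

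T cell transcripts were sparse and lay higher in WT libraries, although edgeR with the low-count filter called no marker. Summed over the 9 genes they were at 55.4, 25.1, and 55.1 normalized CPM in WT and 25, 9.66, and 11.8 in *Ifnar1*-/- libraries, a ratio of group means of 2.92. The lowest WT library was barely above the highest *Ifnar1*-/- library. The mean was higher in WT for all 9 markers. The 7 tested markers had log2 fold changes of 1.03 to 1.80, with a median of 1.52, and adjusted p of 0.103 to 0.24 (edgeR), so 0 passed, as did 0 with DESeq2. Without the low-count filter edgeR called 7 of the 9 higher in WT, against 2.87% of 21265 genes. These were *Cd2*, *Cd3d*, *Cd3e*, *Cd3g*, *Cd4*, *Cd8a*, and *Thy1*. Of the tested T cell markers, 4 (*Cd3d*, *Cd3e*, *Cd3g*, and *Cd4*) had every WT library above every *Ifnar1*-/- library, which held for 11.1% of all tested genes. *Cd3d* entered the tested set through its WT libraries alone, so the filter favoured its direction in these tallies.

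The CD3 chains form the signalling module of the T cell receptor and define the lineage. *Cd3g* (ENSMUSG00000002033.14, chr9:44969572-44980431) was at 6.40, 4.25, and 7.90 normalized CPM in WT and 3.21, 2.20, and 1.10 in *Ifnar1*-/- libraries. All WT libraries were above all *Ifnar1*-/- libraries, but the difference missed the threshold (log2 fold change 1.48, SE 0.41, adjusted p = 0.103, edgeR). *Cd3d* and *Cd3e*, its neighbours within 18.3 kb, had log2 fold changes of 1.74 and 1.72 (adjusted p = 0.178 and 0.135, edgeR). *Cd3e* overlaps the annotated gene *Gm48720* on the same strand, so its reads are uncertain.

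*Thy1*, a surface glycoprotein of mouse T cells, was at 9.11, 5.31, and 8.88 normalized CPM in WT and 5.34, 1.69, and 1.47 in *Ifnar1*-/- libraries. *Ifnar1*-/- library 1 reached WT library 2, so the groups overlapped (log2 fold change 1.43, SE 0.46, adjusted p = 0.147, edgeR). *Cd2*, an adhesion receptor of T and NK cells, was at 7.97, 3.40, and 8.49 in WT and 3.82, 0.678, and 2.39 in *Ifnar1*-/- libraries (log2 fold change 1.52, SE 0.52, adjusted p = 0.167, edgeR), also with overlap. Leaving out *Ifnar1*-/- library 1, the highest of its group, brought *Thy1* past the threshold (log2 fold change 2.30, adjusted p = 0.0343).

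The coreceptors were uneven among WT libraries. *Cd4*, the coreceptor of helper T cells, was at 13.4, 2.98, and 2.37 normalized CPM in WT and 2.29, 1.02, and 2.21 in *Ifnar1*-/- libraries, so WT library 1 stood apart. Without that library its log2 fold change dropped from 1.80 to 0.54. *Cd8a*, which did not pass the filter, was at 0.996, 0.85, and 10.5 in WT and 1.53, 0.678, and 0.919 in *Ifnar1*-/- libraries, so WT library 3 stood apart. With *Cd8b1*, which encodes the partner chain of the coreceptor and is not among the 42, the counts were 12, 5, and 87 in WT and 13, 5, and 8 in *Ifnar1*-/- libraries. The CD4 and CD8 values were singled out after they were seen. *Lck*, the kinase that the coreceptors carry, had a log2 fold change of 1.03 (adjusted p = 0.24, edgeR), and *Cd5*, a negative regulator of T cell receptor signalling, had 1 to 10 counts per library. In a further list of 24 T cell genes, 10 were tested, 0 were called, and the log2 fold changes were 0.70 to 2.31, where 48.2% of all tested genes were above 0. *Bcl11b* (2.31) and *Cd6* (1.80) passed the low-count filter through their WT libraries alone, so the filter favoured their direction.

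NK cell markers included the only call. *Klrk1* (ENSMUSG00000030149.15, chr6:129610323-129623864, minus strand) encodes NKG2D, the activating receptor of NK cells and of activated CD8+ T cells that recognises stress-induced ligands. It was at 13.5, 16.2, and 15.4 normalized CPM in WT and 3.82, 5.08, and 1.84 in *Ifnar1*-/- libraries. The WT libraries lay close together and all above the *Ifnar1*-/- libraries. The means were 15 ± 1.36 (SD, n = 3) and 3.58 ± 1.64 (SD, n = 3). The fold change was 4.13 (log2 fold change 2.05, SE 0.31, adjusted p = 0.0057, edgeR), and DESeq2 gave an adjusted p of 3.5e-06. The call remained when any one library was left out, with log2 fold changes of 1.77 to 2.38 and adjusted p of 0.00658 to 0.0392. An exact two-sided permutation test of this gene alone gave p = 0.1, the smallest that 3 against 3 libraries allow.

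*Hcst* encodes DAP10, the adaptor through which NKG2D signals, and it was not called. It was at 2.56, 2.55, and 3.95 normalized CPM in WT and 4.28, 3.05, and 4.97 in *Ifnar1*-/- libraries (log2 fold change -0.44, SE 0.35, adjusted p = 0.549, edgeR). The groups overlapped. At 13 TPM it had the highest mean of the lymphoid markers per transcript length, and it is known to be transcribed in myeloid cells as well as in lymphocytes.

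*Gzmb*, the granzyme B protease of cytotoxic granules, was at 6.26, 6.59, and 13.6 normalized CPM in WT and 4.43, 1.36, and 1.47 in *Ifnar1*-/- libraries. The groups did not overlap. The result depended on the tool, with a log2 fold change of 1.82 (SE 0.48) and adjusted p of 0.0912 in edgeR and 0.0172 in DESeq2, and without *Ifnar1*-/- library 1 edgeR also called it (adjusted p = 0.0479). *Nkg7*, a cytotoxic granule membrane protein, was at 3.70, 2.34, and 8.29 in WT and 2.44, 0.678, and 4.78 in *Ifnar1*-/- libraries (log2 fold change 0.86, SE 0.61, adjusted p = 0.499, edgeR). WT library 3 was highest for both genes and for CD8 chain counts.

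The other receptors of the NK cell list were sparse, and none passed the low-count filter. *Ncr1*, which encodes NKp46, had 2 counts in WT library 2 and 0 elsewhere. *Klrd1* (CD94) had 0 to 7 counts and *Klrc1* (NKG2A) 0 to 18, and both lie within 42.2 kb of *Klrk1*. The whole list of 7 summed to 29, 30.2, and 45 normalized CPM in WT and 17.9, 10.2, and 13.8 in *Ifnar1*-/- libraries, a ratio of 2.49. As TPM, a sum in which the short *Hcst* transcript weighs most, the same list was at 23.5, 34.2, and 55.1 in WT and 26.7, 17.6, and 25.3 in *Ifnar1*-/- libraries, and the genotypes overlapped. The overlap lay in WT library 1, whose TPM values were scaled lowest. Its median TPM per normalized CPM was 0.357, against 0.443 to 0.53 in the other libraries, so its TPM sum is not on their scale. In normalized CPM the T cell and NK cell sums were both higher in every WT library, and their part in the *Klrk1* difference was not tested.

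**Figure D4:**
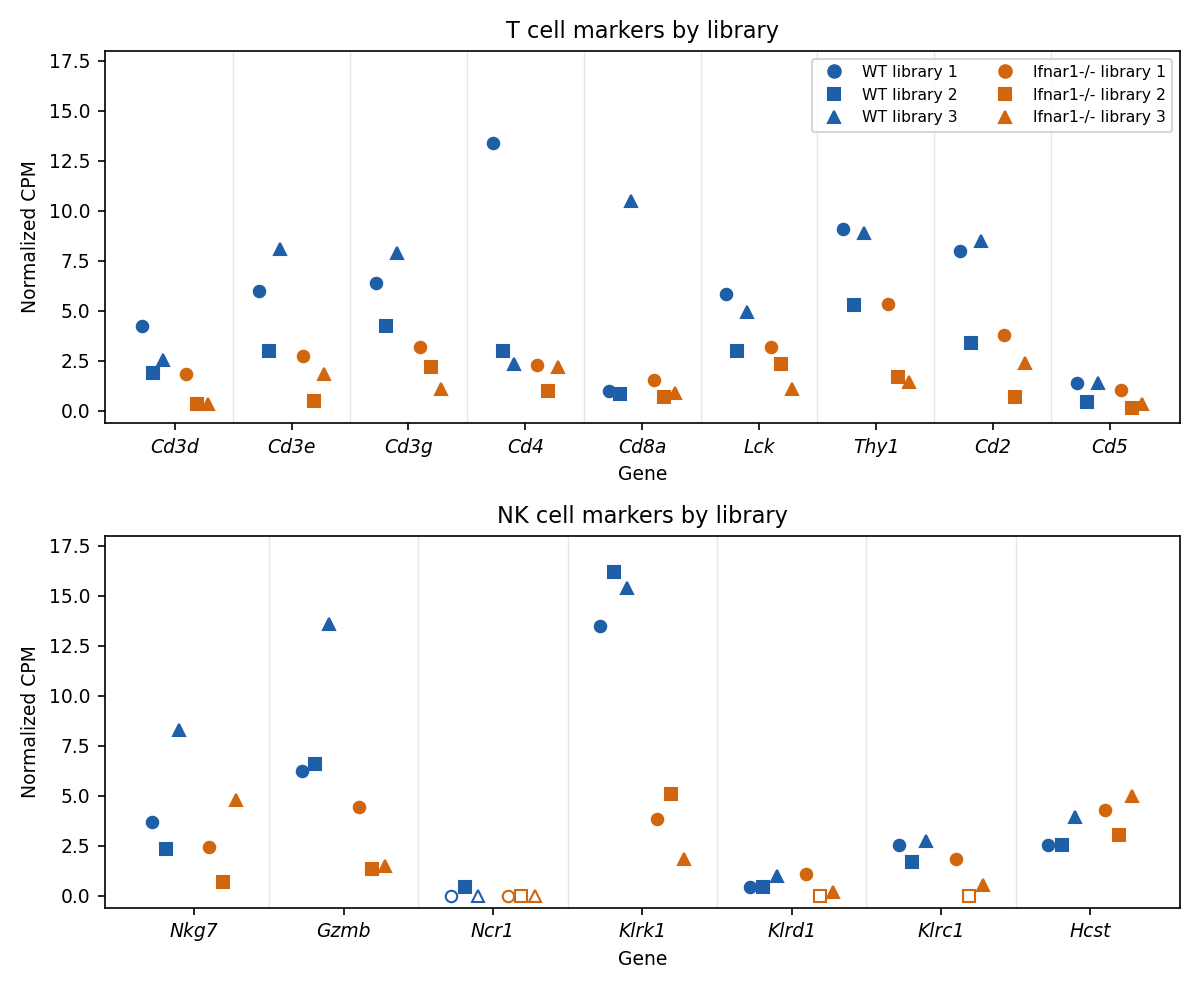
Normalized CPM of the 9 T cell markers and 7 NK cell markers in each library. *Klrk1* shows the clearest separation, with WT libraries at 13.5 to 16.2 and *Ifnar1*-/- libraries at 1.84 to 5.08, whereas *Hcst* overlaps, and *Cd4* and *Cd8a* each rest on 1 high WT library.

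Type I IFN receptors act through STAT complexes that bind ISRE and GAS elements, so the promoters were searched on both strands for the ISRE letters, a pair of GAAA separated by 2 bases of any kind, and for TTCNNNGAA (GAS). The 250 bases before the start of *Klrk1* (chr6:129623865-129624114, minus strand, RefSeq, GRCm38.p6) are shown as the region upstream of the called gene, and none is in capitals because neither motif was matched.
Klrk1: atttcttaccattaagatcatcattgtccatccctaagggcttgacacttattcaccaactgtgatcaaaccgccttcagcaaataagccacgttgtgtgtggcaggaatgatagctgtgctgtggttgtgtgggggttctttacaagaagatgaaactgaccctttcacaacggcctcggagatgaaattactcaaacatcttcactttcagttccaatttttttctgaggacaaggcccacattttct
No marker with a promoter entry held the ISRE letters, which occurred in 3.44% of all promoters. The GAS letters occurred in 5 of 32 markers (*Batf3*, *Cd3d*, *Gfap*, *Gzmb*, and *Nkg7*) and in 8.3% of all promoters. The lack of a match says only that these letters are not in the windows searched.

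B cell markers were sparse, and none passed the low-count filter. *Cd79a* and *Cd79b* encode the signalling chains of the B cell receptor, and *Ms4a1* encodes CD20. *Cd79a* had 1 count in WT library 3 and 0 elsewhere, and *Ms4a1* had 1 count each in WT library 1 and *Ifnar1*-/- library 3. *Cd79b* had 11, 7, and 7 counts in WT and 2, 4, and 5 in *Ifnar1*-/- libraries, which were too few to be tested. Of 12 further B cell genes, 7 had no count in any library, which allows up to 0.41 to 0.662 CPM per library by counting error. In that list, 2 genes were tested and 0 called. These were *Cd22*, with 13 to 70 counts per library, and *Ighm*, with 17 to 66 (adjusted p = 0.331 and 0.888, edgeR).

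Dendritic cell markers were led by *Flt3*, the receptor for the cytokine that sustains dendritic cells and their progenitors. *Flt3* was at 11.2, 21.5, and 16.4 normalized CPM in WT and 15.6, 10.7, and 9.93 in *Ifnar1*-/- libraries (log2 fold change 0.42, SE 0.27, adjusted p = 0.452, edgeR), with overlap. *Batf3*, a transcription factor of cross-presenting dendritic cells, was at 2.13, 2.13, and 1.58 in WT and 2.75, 1.02, and 2.39 in *Ifnar1*-/- libraries (log2 fold change -0.07, SE 0.45, adjusted p = 0.956, edgeR). Both genes overlapped between genotypes and neither was called. *Cd209a*, a lectin of monocyte-derived dendritic cells, had 10, 2, and 4 counts in WT and 18, 0, and 1 in *Ifnar1*-/- libraries. *Zbtb46*, which marks conventional dendritic cells, had 1 to 13 counts, and *Xcr1*, a chemokine receptor of their cross-presenting subset, had 0 to 5.

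No microglia marker was called. *P2ry12*, the purinergic receptor of homeostatic microglia, was the most abundant and was at 15.2, 27.4, and 17.4 normalized CPM in WT and 23.7, 31, and 23.5 in *Ifnar1*-/- libraries (log2 fold change -0.39, SE 0.23, adjusted p = 0.412, edgeR). The groups overlapped. *P2ry12* lies within *Med12l* on the opposite strand, and whether the counting used strand is not stated, so reads of the 2 genes may not be separated. *Tmem119*, a membrane protein used to tell microglia from monocytes, was at 11.4, 2.13, and 5.33 in WT and 6.72, 3.73, and 8.09 in *Ifnar1*-/- libraries (log2 fold change 0.08, SE 0.49, adjusted p = 0.959, edgeR). *Olfml3*, a secreted matrix protein, was at 12.7, 6.59, and 6.91 in WT and 8.70, 6.27, and 10.5 in *Ifnar1*-/- libraries (log2 fold change 0.07, SE 0.31, adjusted p = 0.942, edgeR). WT library 1 was the highest of the 6 for both genes, and the genotypes overlapped.

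The remaining microglia markers were sparse. *Sparc*, a matrix protein, had 2 to 21 counts, *Fcrls* had 1 to 13, *Gpr34*, a lysophospholipid receptor, had 1 to 9, and *Sall1*, the transcription factor that defines microglial identity, had 0 to 7. Summed over the 7 genes, microglia markers were at 45.4, 38.3, and 34.5 normalized CPM in WT and 44, 44.1, and 45.6 in *Ifnar1*-/- libraries.

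Neural markers were represented by *Mbp*. This gene encodes myelin basic protein in oligodendrocytes and also the golli transcripts, which are made in haematopoietic cells. *Mbp* was at 52.8, 41.2, and 47.2 normalized CPM in WT and 44.6, 39.5, and 47.4 in *Ifnar1*-/- libraries, the most even of the abundant markers (log2 fold change 0.11, SE 0.15, adjusted p = 0.754, edgeR). Gene-level counts do not separate myelin from golli transcripts. *Mog*, another myelin gene, and the neuronal gene *Rbfox3* were the 2 of 16 further neural genes with no count in any library. Both were named after their values were seen. Of the 16, 6 were tested and 0 called with edgeR, 4 with log2 fold changes above 0 and 2 below. *Cnp*, also named after its values were seen, spanned 24.5 to 43.4 normalized CPM in WT and 17.4 to 18.6 in *Ifnar1*-/- libraries (adjusted p = 0.0751, edgeR, and 0.0279, DESeq2). The 16 summed to 61.4 to 77.8 in WT and 44.3 to 59.3 in *Ifnar1*-/- libraries. *Cnp* was the largest part of each WT sum. *Gja1* went the other way, at 0.854, 1.70, and 1.18 in WT and 5.80, 3.05, and 2.21 in *Ifnar1*-/- libraries (log2 fold change -1.60, adjusted p = 0.132, edgeR). It passed the low-count filter through its *Ifnar1*-/- libraries alone and was also named after its values were seen. *Gfap*, the intermediate filament of astrocytes, was at 6.69, 2.76, and 2.76 in WT and 0.764, 3.90, and 2.76 in *Ifnar1*-/- libraries (log2 fold change 0.77, SE 0.55, adjusted p = 0.504, edgeR). *Snap25*, a synaptic vesicle fusion protein of neurons, had 1 count in WT library 1 and 1 in *Ifnar1*-/- library 3.

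**Figure D5:**
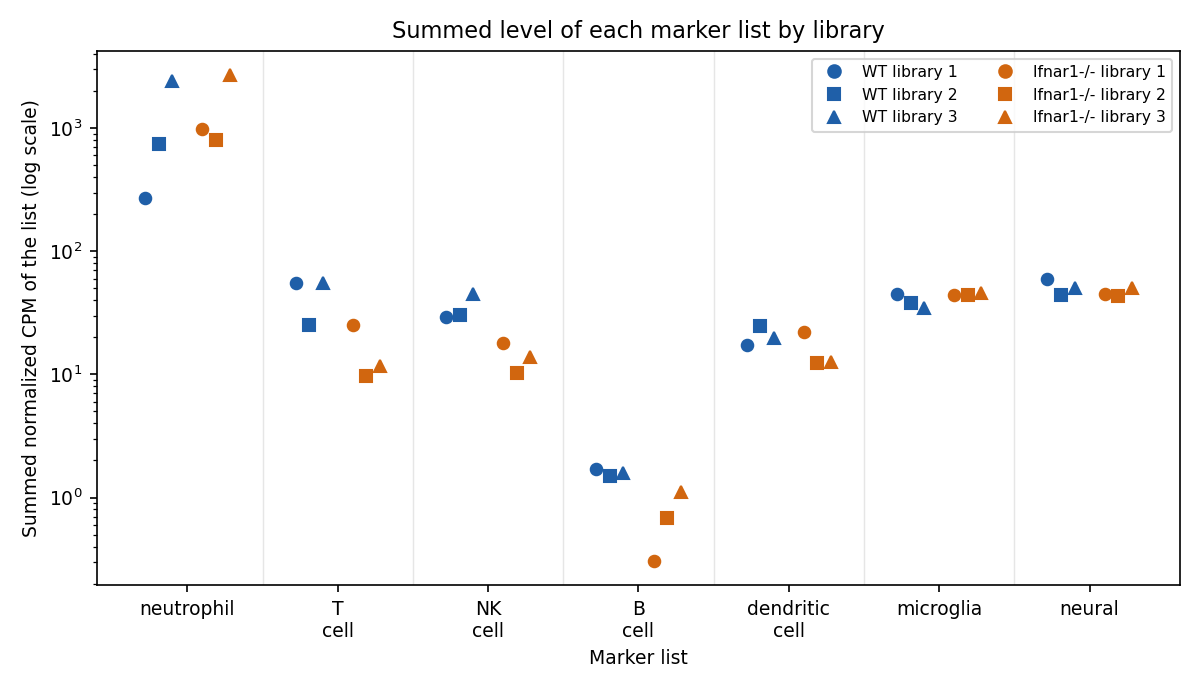
Summed normalized CPM (log scale) of each marker list in each library. The neutrophil sum spans 272 to 2701 with overlapping genotypes, and the T cell and NK cell sums are higher in all WT libraries. On the TPM scale, which is lowest for WT library 1, the NK cell sums overlap through that library. The microglia and neural sums stay within 34.5 to 59.6.

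Beyond the 42 markers, 133 further lineage genes were examined as lists of the same lineages and of erythroid, platelet, endothelial, stromal, mast cell, and basophil origin. Of these, 51 were tested, 2 were called higher in WT, and 0 were called lower, against 1.67% and 0.462% of all 11254 tested genes. *Il2rb*, the IL-2 and IL-15 receptor chain of NK and memory CD8+ T cells, was at 18.1, 7.44, and 12.6 normalized CPM in WT and 5.04, 4.74, and 4.23 in *Ifnar1*-/- libraries (log2 fold change 1.46, SE 0.32, adjusted p = 0.0478, edgeR). Its call was lost when any library other than WT library 2 was left out (adjusted p = 0.108 to 0.168). *Kdr*, the VEGF receptor of endothelial cells, was at 20.9, 7.01, and 6.12 in WT and 1.22, 1.86, and 0.919 in *Ifnar1*-/- libraries (log2 fold change 3.09, SE 0.54, adjusted p = 0.0143, edgeR), and its call was lost without *Ifnar1*-/- library 1 (adjusted p = 0.106) or 3 (adjusted p = 0.0727). Of the 10 endothelial and stromal genes 3 were tested, all with log2 fold changes above 0, and only *Kdr* was called. *Cldn5* and *Cdh5*, endothelial genes of that list named after their values were seen, had 0 to 3 and 1 to 14 counts and were not tested. The 10 erythroid and platelet genes and the 6 mast cell and basophil genes gave no tested gene, and 40 of the 133 had at most 3 counts in every library.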

How the data were processed

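Per the labels and the methods, RNA libraries of sorted CNS monocytes (the labels and the methods name different kits) were sequenced as 75 bp pairs and mapped to GRCm38. The submitters' processing notes name STAR 2.6.0c and RSEM 1.2.31. The authors deposited RSEM expected counts, which are estimates and not normalized, with TPM and FPKM scaled by the authors for length and library. FPKM was not used here. The deposited TPM values were used to compare genes and for summed levels.

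Expected counts were rounded. GENCODE M21 names matched 54165 of 54232 identifiers. Of 21265 genes with any count, 11254 passed filterByExpr (minimum count 10), which kept genes at about 1.78 CPM or more in enough libraries. WT was compared with *Ifnar1*-/- by edgeR 4.0.16 in R 4.3.3 (TMM, quasi-likelihood test, Benjamini-Hochberg adjustment, no block); a call needed an adjusted p no larger than 0.05 with a fold change of 1.5 or more. The script was tested on simulated data. Exact permutation tests were two-sided on log2(normalized CPM + 0.5). DESeq2 1.42.0, limma-voom (limma 3.58.1), RLE normalization, no filter, at least 10 counts in every library, removal of mitochondrial and ribosomal RNA genes, a replicate block, and leaving out each library were alternatives. TPM rescaled over protein-coding genes was chosen after seeing the data.

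Values per library are given for every called marker and the 3 markers of highest mean TPM in each list; others named were chosen after their values were seen. The members and lists were chosen with earlier results of these data known. Floors cover counting error only. Some single genes of the further lists are not reported here.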

Additional observations from a re-analysis of the deposited data

How the results depend on the processing

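The *Klrk1* call was kept under all alternatives, with log2 fold changes of 1.77 to 2.38. DESeq2, without and with the replicate block, called 2 markers higher in WT. Without a low-count filter, 9 were called higher and 3 lower, and leaving out single libraries gave 1 to 3 higher. Over all genes, DESeq2 called 316 higher and 104 lower, no filter gave 610 and 262, and leaving out libraries gave 110 to 204 and 7 to 41. Of the other lineage genes, DESeq2 called 7 higher, no filter 20 higher and 3 lower, the strict filter 1, limma-voom 0, and leaving out libraries 0 to 3.

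Signs of small fold changes turned. *Batf3* was at 0.03 with limma-voom, 0.02 with the replicate block in DESeq2, and -0.38 to 0.23 without single libraries. *Tmem119* was at -0.06, -0.15, and -0.71 to 0.48, and at -0.07 with the replicate block in edgeR. Leaving out libraries gave -0.32 to 0.26 for *Olfml3*, -1.86 to 0.18 for *S100a9*, and -1.44 to 0.70 for *Ngp*. Log2 ratios of summed TPM were 0.70 for NK cell markers (1.32 as normalized CPM, 1.49 without *Hcst*), -0.26 for microglia markers (0.08 without *P2ry12*), and 0.19 for neural markers (0.46 without *Mbp*). The cause was not tested.

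Same-numbered libraries correlated at 0.0906, 0.0278, and 0.275, against -0.196 to 0.092 for libraries of different numbers. These values neither establish nor exclude pairing. With the replicate block in edgeR, *Klrk1* stayed the 1 marker called (adjusted p = 0.00877). That block moved *S100a8* from -0.82 (SE 0.63) to -1.13 (SE 0.42, adjusted p = 0.208), and the neutrophil sum was lower in WT within each number. The low-count filter left 15 of 42 markers untested, 4 of which had at most 3 counts in every library.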
